A study of Mus musculus with 6 samples.

Results

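The genes described here are 10 genes of lipid droplets, of the lipases that act on their triglyceride and of lipid uptake, in the livers of mice that lack Atp7b, the copper-transporting ATPase mutated in Wilson disease. They were chosen by name as rows of the deposited table: the perilipins Plin2, Plin4 and Plin5, the CIDE genes Cidea, Cideb and Cidec, the uptake genes Cd36 and Lpl, and the lipase gene Pnpla2 with its inhibitor G0s2. All 10 were found among the 41388 gene identifiers, and 9 of them passed the filter on low counts. Bulk liver RNA was sequenced from 3 wild type and 3 Atp7b-/- mice of the mixed C57BL x 129S6/SvEv background, aged 6 weeks and kept on a chow with 16 ppm copper. The labels state no treatment for either group. The labels do not say which part of Atp7b is disrupted or in so many words that each library is a separate mouse, so p-values measure the spread between these libraries. Wild type replicate 1 and Atp7b-/- replicate 3 belong to a second, paired-end dataset, and the other 4 libraries are single-end.

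Hepatocytes store triglyceride in droplets coated by perilipins, which govern the access of lipases to the core, and CIDE proteins enlarge droplets by passing lipid between them or, for Cideb, load lipid onto lipoproteins. The lipase ATGL, encoded by Pnpla2, takes the first step of triglyceride breakdown and is switched on by the protein of Abhd5 and held back by that of G0s2. Lipoprotein lipase (Lpl) frees fatty acids from circulating lipoproteins, and Cd36 helps them into cells. Plin4, Cidea, Cidec, Cd36 and Lpl are also genes of fat cells, and Plin4, Plin5, Cd36 and Lpl of muscle.

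Total counts ran from 5919389 to 25973968 per library, and levels are given as CPM, each gene's count relative to the library's total after the libraries were scaled to each other (TMM). Atp7b itself was at 25.2 to 85.1 CPM in the wild type libraries, above the 13.2 to 19.2 CPM of the Atp7b-/- ones. Sex-linked transcripts went against the label in 2 libraries called female. Atp7b-/- replicate 3 had 0.48 CPM of Xist, the RNA of the inactive X chromosome, and 126 CPM of the Y-linked Ddx3y, and wild type replicate 3 had 17.4 and 28 CPM. Only wild type replicate 2 had abundant Xist (370.5 CPM) with Ddx3y near 0 (0.339 CPM). In that library the summed female-biased liver genes reached 1094 CPM, against 5.65 to 52.4 CPM elsewhere. The 7 hepatocyte markers were abundant in all libraries, with sums of 83190 to 105432 CPM in the wild type and a lower 52050 to 69650 CPM in the Atp7b-/- group. All 7 had negative genotype differences, and edgeR called 0 of them, with 1 at an unadjusted p under 0.05. It also called 0 of 8 endothelial markers, all negative too, and 0 of 7 stellate cell markers, with 2 and 0 under that unadjusted p. Of all genes tested, 14.5% were under it. DESeq2 and limma-voom called 0 in these 3 lists. The part of cell makeup in the results below was not tested. RNA of fat cells was seen in both paired-end libraries: no adipocyte marker of 10 was at 0 there, against 4 or 5 of the 10 in each single-end library. The adipokine gene Adipoq stood at 7.7 and 4.7 CPM and the adipsin gene Cfd at 14.8 and 10.8 CPM in wild type replicate 1 and Atp7b-/- replicate 3. In the single-end libraries Cfd was at 0 and Adipoq had at most 1 count. The summed adipocyte list was 80.6 and 59.2 CPM in the paired-end and 24.2 to 29.1 CPM in the single-end libraries, most of the latter from Lipe, which liver also expresses. Wild type replicate 1 alone also held skeletal muscle RNA, with a summed level of 83.1 CPM over 7 markers, against 0.14 to 0.823 CPM elsewhere.

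Lpl was the gene that differed between the genotypes. Of the 9 tested genes 1 rose in Atp7b-/- livers, 0 fell and the other 8 were not called. Across all 12988 genes tested, 2.49% were called at an adjusted p under 0.05, 1.9% as higher and 0.585% as lower in Atp7b-/- livers. The 9 genes had a median log2 fold change (Atp7b-/- minus wild type) of 0.10, beside -0.01 over all genes tested. Among them 6 values were positive and 3 negative.

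**Figure D1:**
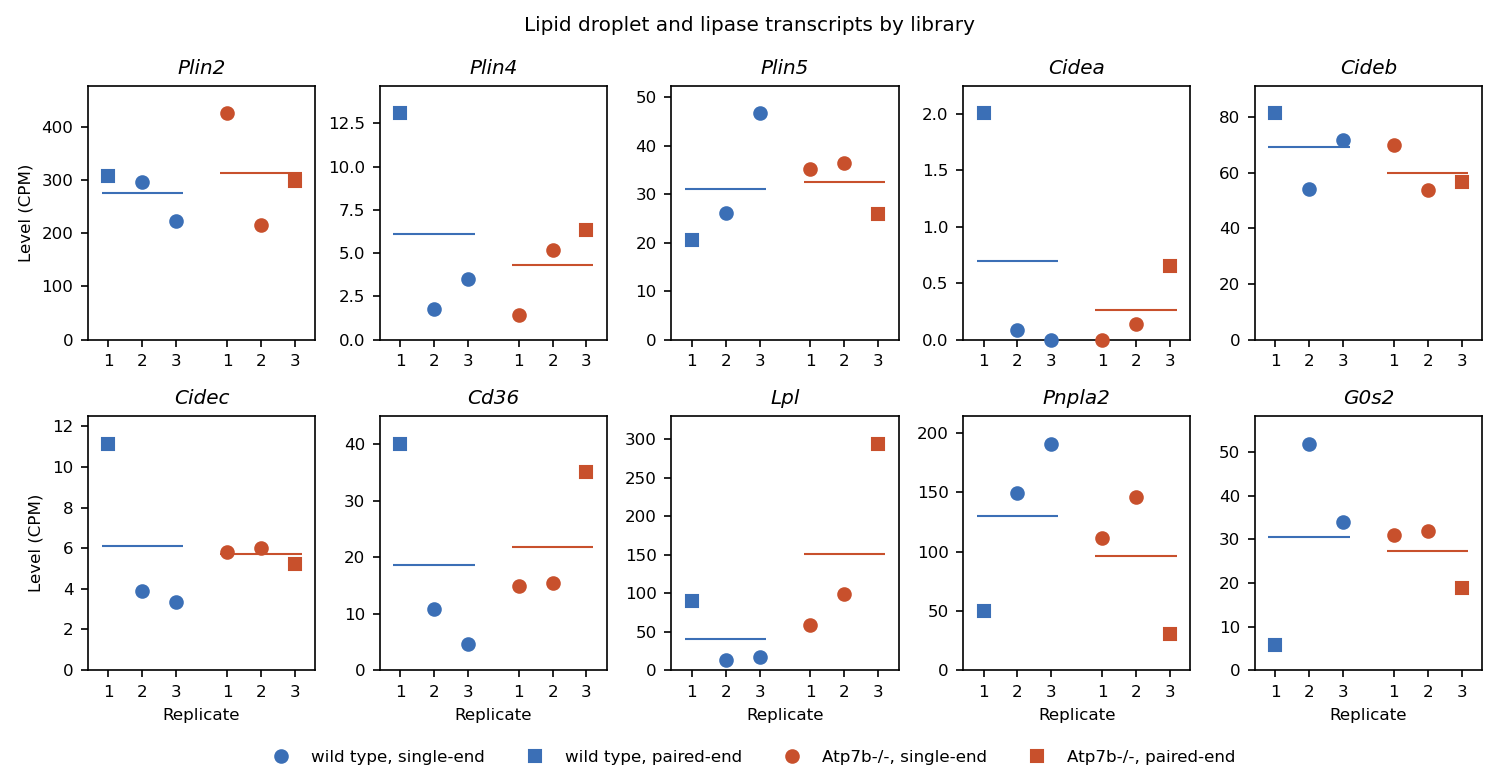
Level of each of the 10 genes in CPM (y axis, linear from 0) in the 3 wild type (blue) and 3 Atp7b-/- (red) libraries by replicate (x axis); squares are paired-end and circles single-end libraries, and lines are the means of 3. Lpl was higher in Atp7b-/- livers within each layout, while within each genotype the paired-end library was the highest in Plin4, Cidea, Cd36 and Lpl and the lowest in Plin5, Pnpla2 and G0s2.

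Set per kilobase of exon, so that genes can be compared, Plin2 was the most abundant of the 10 at a mean of 83.8 CPM per kilobase over 6 libraries (range 61.1 to 121). It was followed by Cideb at 43.4 (36.1 to 54.7), Pnpla2 at 37.5 (10.1 to 63.3) and G0s2 at 33.2 (6.59 to 59.7). Plin5 stood at 15.3 (9.89 to 22.4), Lpl at 9.11 (1.22 to 28.1), Cd36 at 5.62 (1.29 to 11.2) and Cidec at 3.19 (1.8 to 6.01). Plin4 at 0.905 (0.252 to 2.26) and Cidea at 0.431 (0 to 1.8) were the lowest. Only Plin2 and Cideb, among neighbours in this order, had ranges that did not overlap. The order depended on layout: over the 4 single-end libraries Plin2 (82.5) was followed by Pnpla2 (49.6), G0s2 (42.8), Cideb (41.9) and Plin5 (17.3), and Lpl was at 4.5 CPM per kilobase.

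Lpl (ENSMUSG00000015568, chromosome 8, 68880491 to 68907448, plus strand, GRCm38) encodes the lipase that works on the vessel wall and is little expressed by adult hepatocytes. Its level was 89.6, 12.8 and 17.6 CPM in wild type replicates 1 to 3 and 58.9, 99.2 and 294.6 CPM in Atp7b-/- replicates 1 to 3. Within each layout every Atp7b-/- library was above every wild type library, but the paired-end wild type library lay above the lowest Atp7b-/- one, and the groups overlapped when layouts were mixed. The mean was 40 ± 43 CPM in the wild type group, against 151 ± 126 CPM for the Atp7b-/- group (SD, n = 3 each). With layout as a term, Lpl was 4.44-fold higher in Atp7b-/- livers (95% interval 2.88 to 6.85), a log2 ratio of 2.15 (SE 0.28, adjusted p = 0.00449, edgeR's quasi-likelihood test). The single-end means differed 5.2-fold (15.2 against 79 CPM) and the paired-end pair 3.29-fold.

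The rise of Lpl kept its call when any 1 of the 6 libraries was left out, with log2 differences of 1.87 to 2.4 and adjusted p of 0.00328 to 0.0326. When a paired-end library was left out, the layout term fitted the other one exactly, so only the single-end libraries were compared. Without both libraries whose sex-linked genes went against their labels the log2 difference was 2.62. The layout term then fitted wild type replicate 1 exactly. Wild type replicate 2, the library with abundant Xist, thus stood alone against Atp7b-/- replicates 1 and 2. Without wild type replicate 2 the difference was 1.96 (adjusted p = 0.00837). In the single-end libraries alone it was 2.39 (adjusted p = 0.0319). The wild type libraries there are labelled female and the Atp7b-/- ones male, so genotype and labelled sex cannot be told apart in that comparison. In the single-end libraries Lep, Cfd and Slc36a2 of the 10 adipocyte markers were at 0, and Adipoq and Plin1 had at most 1 count. But Aqp7, the glycerol channel of fat cells, was higher in the Atp7b-/- libraries, as Lpl was. Aqp7 was at 1, 0.17 and 0.185 CPM in wild type replicates 1 to 3, against 3.38, 1.82 and 2.13 CPM in the Atp7b-/- ones. Aqp7 thus showed no overlap over 6 libraries, a pattern held by 8.5% of all genes tested. Its difference of 2.38 (SE 0.66) was not called by edgeR (adjusted p = 0.12) or limma-voom, and was called by DESeq2 and by edgeR without the filter. Of the 5 adipocyte markers tested it was the only positive one, and its part in the rise of Lpl was not tested. Over all 16 alternatives the adjusted p ran from 2.73e-17 to 1. The call was lost only when layout was left out or replaced by the labelled sex (adjusted p = 1 in both), where the log2 difference was 1.91 and 2.04 with SEs of 0.936 and 1.1. Of all genes, 1.01%, 2.34% and 1.91% were called without wild type replicates 1 to 3, and 1.56%, 2.08% and 0.92% without Atp7b-/- replicates 1 to 3. The share was 1.03% in the single-end libraries alone, 2.47% with upper quartile scaling, 5.93% with DESeq2, 3.05% with limma-voom, 4.44% with no filter and 2.13% with labelled sex added to layout. It was 0% with layout left out or replaced by labelled sex, with 4.2% and 2.93% at an unadjusted p under 0.05.

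Macrophages also make lipoprotein lipase, and 0 of their 9 tested markers were called by edgeR, DESeq2 or limma-voom, with 0 at an unadjusted p under 0.05. Of these 9 markers 4 had positive and 5 negative genotype differences, with a median log2 difference of -0.04. The summed list of 10 macrophage and Kupffer cell markers was 179 to 365 CPM in wild type and 197 to 310 CPM in Atp7b-/- libraries. Gpnmb and Trem2, markers of lipid-laden macrophages, were high in Atp7b-/- replicate 2 (27.6 and 2.8 CPM), against at most 2.04 and 0.185 CPM in any other library. Without that library the log2 difference of Lpl was 1.87 (edgeR, adjusted p = 0.00665), the lowest over the alternatives. The part of macrophages in the rise of Lpl was not tested. In bulk liver, a change in the number of cells of a type and in the RNA per cell cannot be told apart.

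**Figure D2:**
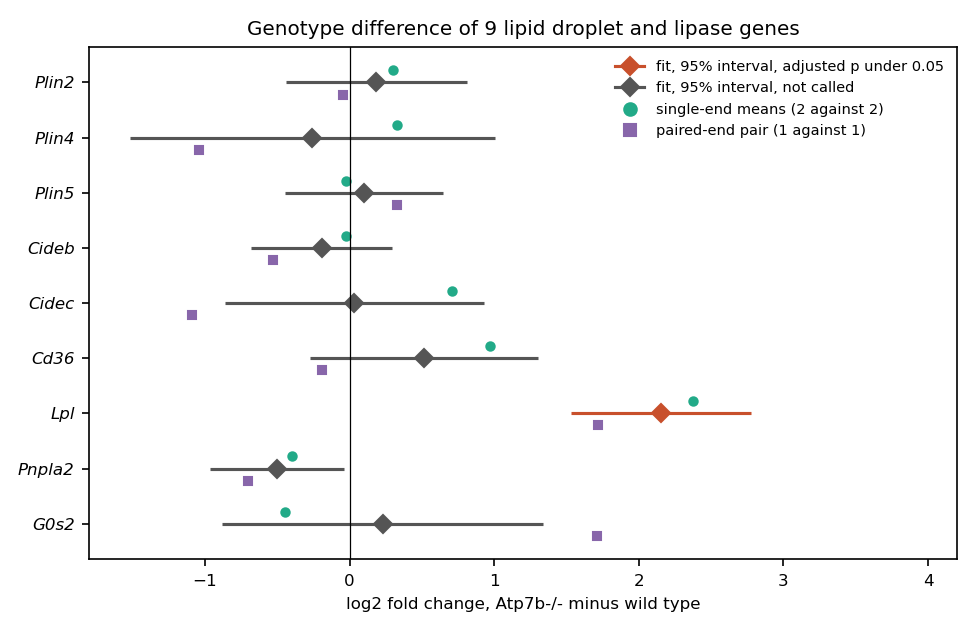
Genotype difference of 9 genes as log2 fold change, Atp7b-/- minus wild type (x axis): diamonds with 95% intervals are the fit over 6 libraries with layout as a term, circles the ratio of single-end means and squares that of the paired-end pair. The interval of Lpl runs from 1.53 to 2.78, whereas Plin2, Plin4, Plin5, Cidec, Cd36 and G0s2 have circle and square on opposite sides of 0.

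The perilipins did not differ by genotype beyond the spread of the libraries. Plin2 (ENSMUSG00000028494, chromosome 4), the main droplet coat protein of hepatocytes, was at 307, 296.5 and 223 CPM in wild type replicates 1 to 3, against 425, 214.5 and 298 CPM in the Atp7b-/- ones. The highest and the lowest of these 6 values were both Atp7b-/- libraries. Its log2 difference of 0.19 (SE 0.28, adjusted p = 0.821) had an interval of -0.44 to 0.81, that is 0.736-fold to 1.76-fold. Plin5 (ENSMUSG00000011305, chromosome 17), which tethers droplets to mitochondria, was at 20.6, 26.1 and 46.7 CPM in wild type replicates 1 to 3, against 35.2, 36.4 and 25.9 CPM in the Atp7b-/- ones. The Atp7b-/- values lay inside the wild type range, and the difference was 0.10 (SE 0.24, adjusted p = 0.895, interval -0.45 to 0.65). Plin4 (ENSMUSG00000002831), the neighbour of Plin5 on chromosome 17 and better known from fat and muscle, was at 13.1, 1.78 and 3.52 CPM in wild type replicates 1 to 3, against 1.46, 5.19 and 6.35 CPM in the Atp7b-/- ones. Its highest level was in the library with both fat and muscle RNA. The part of that RNA in the level was not tested. The difference between genotypes was -0.26 with a wide interval, -1.52 to 1.00 (adjusted p = 0.882). Its sign turned without Atp7b-/- replicate 1 (0.05), and without the paired-end library of the wild type (0.31) or the Atp7b-/- group (0.32). The latter fits both compare the single-end libraries alone.

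Among the CIDE genes only Cideb, the form typical of hepatocytes, was abundant. Cideb (ENSMUSG00000022219, chromosome 14) was at 81.4, 54.1 and 71.8 CPM in wild type replicates 1 to 3, against 69.8, 53.7 and 56.5 CPM in the Atp7b-/- ones, and the groups overlapped (difference -0.19, SE 0.22, adjusted p = 0.751, interval -0.68 to 0.30). Exons of Nop9 on the opposite strand cover 76.3% of its exon length, and with the strand setting of the counting not stated, reads of the pair may not be separable.

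Cidec (ENSMUSG00000030278, chromosome 6), known for the large droplets of fat cells and fatty liver, was at 11.2, 3.9 and 3.33 CPM in wild type replicates 1 to 3, against 5.82, 6.03 and 5.25 CPM in the Atp7b-/- ones. Its genotype difference pointed up in the single-end libraries (1.64-fold, no overlap) and down in the paired-end pair (2.13-fold lower in Atp7b-/-). Fitted over both, it was 0.03 (SE 0.40, adjusted p = 0.983, interval -0.86 to 0.93). Without wild type replicate 1, the library with fat and muscle RNA, it was 0.70 and did not pass the test (adjusted p = 0.446, range over the alternatives 0.416 to 1).

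Cidea (ENSMUSG00000024526, chromosome 18), a gene of brown fat that liver gains in steatosis, did not pass the filter. It had 44, 1 and 0 counts in wild type and 0, 1 and 19 counts in Atp7b-/- replicates 1 to 3. Its counts thus came almost wholly from the paired-end libraries, in which every adipocyte marker was also found. A count of 0 allowed up to 0.556 CPM in wild type replicate 3 and 0.175 CPM in Atp7b-/- replicate 1, taking 3 counts as the limit and counting error alone. The limit in Atp7b-/- replicate 1 bounds a rise of Cidea in that library, and the other limit bounds the level in wild type replicate 3. A fall was not detectable from the 1 and 0 counts of the single-end wild type libraries.

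Cd36 (ENSMUSG00000002944, chromosome 5), the fatty acid translocase, was at 40.1, 10.9 and 4.63 CPM in wild type replicates 1 to 3, against 14.9, 15.4 and 35.1 CPM in the Atp7b-/- ones. In the single-end libraries both Atp7b-/- values were above both wild type values, a ratio of 1.96, while in the paired-end pair the Atp7b-/- library was 1.14-fold lower. The fit gave a difference of 0.52 (SE 0.34, adjusted p = 0.552, interval -0.27 to 1.3).

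Pnpla2 (ENSMUSG00000025509, chromosome 7), encoding ATGL, was at 49.8, 149 and 191 CPM in wild type replicates 1 to 3, against 112, 146 and 30.5 CPM in the Atp7b-/- ones. It was lower in Atp7b-/- livers within each layout, narrowly so in the single-end libraries, where 146 CPM stood against 149 CPM. The difference of -0.50 (SE 0.21, interval -0.97 to -0.04) had an unadjusted p of 0.0378 in edgeR, and 2 of the 9 genes, Lpl and Pnpla2, had one under 0.05, as did 14.5% of all genes. It did not pass after adjustment (adjusted p = 0.306). G0s2 (ENSMUSG00000009633, chromosome 1), whose small protein blocks ATGL, was at 5.74, 52 and 34.1 CPM in wild type replicates 1 to 3, against 31.1, 31.9 and 18.8 CPM in the Atp7b-/- ones. Its lowest values were the paired-end ones in both groups. The genotype difference was 0.23 (SE 0.46, adjusted p = 0.878, interval -0.88 to 1.34), and its sign turned without either paired-end library (-0.45 without wild type replicate 1, -0.44 without Atp7b-/- replicate 3). Both of these fits compare the single-end libraries alone.

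Of the 9 tested genes, Lpl and Pnpla2 showed no overlap between genotypes in the single-end libraries and the same direction in the paired-end pair, a pattern held by 29.2% of all genes tested, 15.1% with Atp7b-/- higher. Cidec, Cd36 and G0s2 showed no overlap in the single-end libraries and the opposite direction in the paired-end pair, as did 16.8% of all genes. None of the 9 had genotypes that did not overlap over all 6 libraries, which 8.5% of genes had. The difference between the layouts in the genotype effect was tested as an interaction, in which each paired-end library is fitted exactly and the error comes from the single-end libraries alone. Labelled sex divides the libraries in the same way as this interaction, so layout and labelled sex cannot be told apart in it. In that test 0.0154% of all genes were called and none of the 9, and 4.57% had an unadjusted p under 0.05, as did 2 of the 9. G0s2 had the lowest unadjusted p of them in edgeR, 0.00263, with an effect 2.17 higher in the paired-end pair (SE 0.49, adjusted p = 0.509), and Cidec followed with one 1.78 lower (the fitted difference was -1.78, SE 0.56, unadjusted p = 0.0144, adjusted p = 0.987).

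More genes differed by layout than by genotype. With genotype as a term, 5 of the 9 genes differed between paired-end and single-end libraries (edgeR, adjusted p under 0.05), beside 52.8% of all genes (27.2% higher and 25.7% lower in paired-end libraries). Lpl, Cd36 and Plin4 were 4.74-fold, 3.46-fold and 3.3-fold higher in the paired-end libraries (log2 2.24, 1.79 and 1.72, adjusted p = 0.000303, 0.00305 and 0.0262). Pnpla2 was 3.78-fold and G0s2 3.18-fold lower (log2 -1.92 and -1.67, adjusted p = 0.000348 and 0.0341). Lpl and Pnpla2 kept this call when any 1 library was left out. Plin4 lost it without wild type replicate 1, 2 or 3 (adjusted p = 0.336, 0.0519 and 0.0847), G0s2 without wild type replicate 1 or 3 (0.15 and 0.106) and Cd36 without wild type replicate 1 (0.0812). The fat cell RNA described above moved with layout, and its part in these differences was not tested. Layout stands for the second dataset as a whole, whose handling and sequencing cannot be told apart.

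**Figure D3:**
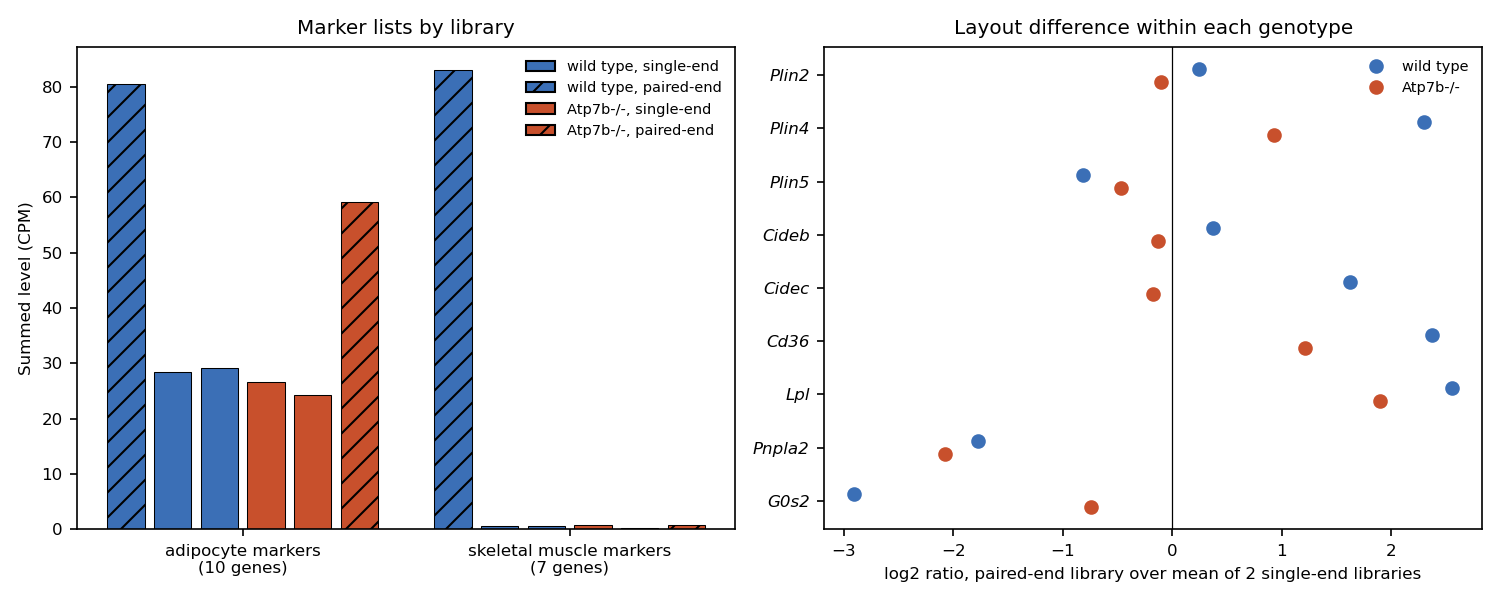
Left, summed CPM (y axis) of 10 adipocyte and 7 skeletal muscle markers in each library, with hatched bars for paired-end; right, log2 ratio of the paired-end library over the mean of the 2 single-end libraries (x axis) for 9 genes within wild type (blue) and Atp7b-/- (red). The adipocyte list reached 80.6 and 59.2 CPM in the paired-end libraries, and Lpl, Cd36 and Plin4 were higher there in both genotypes, Pnpla2 and G0s2 lower.

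Abhd5, which encodes the activator of ATGL, also rose. It was at 36.1, 19.5 and 16.7 CPM in wild type replicates 1 to 3, against 36.5, 27.6 and 79.4 CPM in the Atp7b-/- ones, and within each layout the Atp7b-/- libraries were higher. The change was 1.91-fold (log2 0.93, SE 0.20, adjusted p = 0.0496), at the edge of the threshold, and the call was lost in each of the 6 leave-outs (adjusted p = 0.0523 to 0.237; 0.00164 to 1 over all alternatives). It was 1 of 11 tested genes of the other intracellular lipases and their cofactors that rose in edgeR's test, with 0 that fell and 4 at an unadjusted p under 0.05. Over all genes tested, 1.9% rose, 0.585% fell and 14.5% had such an unadjusted p. DESeq2 called 2 higher (Abhd5 and Ces1g) and 1 lower (Mgll), and limma-voom Abhd5 higher and Mgll lower. Over all genes these 2 tools called 5.93% and 3.05%. The list's median was 0.04. Mgll, the lipase of monoglycerides, was at 211 ± 51.6 CPM across wild type livers, against 117 ± 22.9 CPM across Atp7b-/- ones (log2 fold change -0.83, adjusted p = 0.0645 in edgeR). Mgll was called lower by DESeq2 (adjusted p = 0.000885), by limma-voom (0.0408) and without the filter (0.0166), and its adjusted p ran up to 1 over all alternatives. The carboxylesterase gene Ces1g was at 83.4 ± 39.3 and 278 ± 77.9 CPM (1.70, adjusted p = 0.0649). It passed in 4 of 16 alternatives, among them without wild type replicate 2 or 3 (adjusted p = 0.00175 and 0.0403, range 6.83e-11 to 1), and counts of the Ces1 family may be split between near-identical copies. Aadac, a further liver esterase, differed by 0.53 (adjusted p = 0.302).

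**Figure D4:**
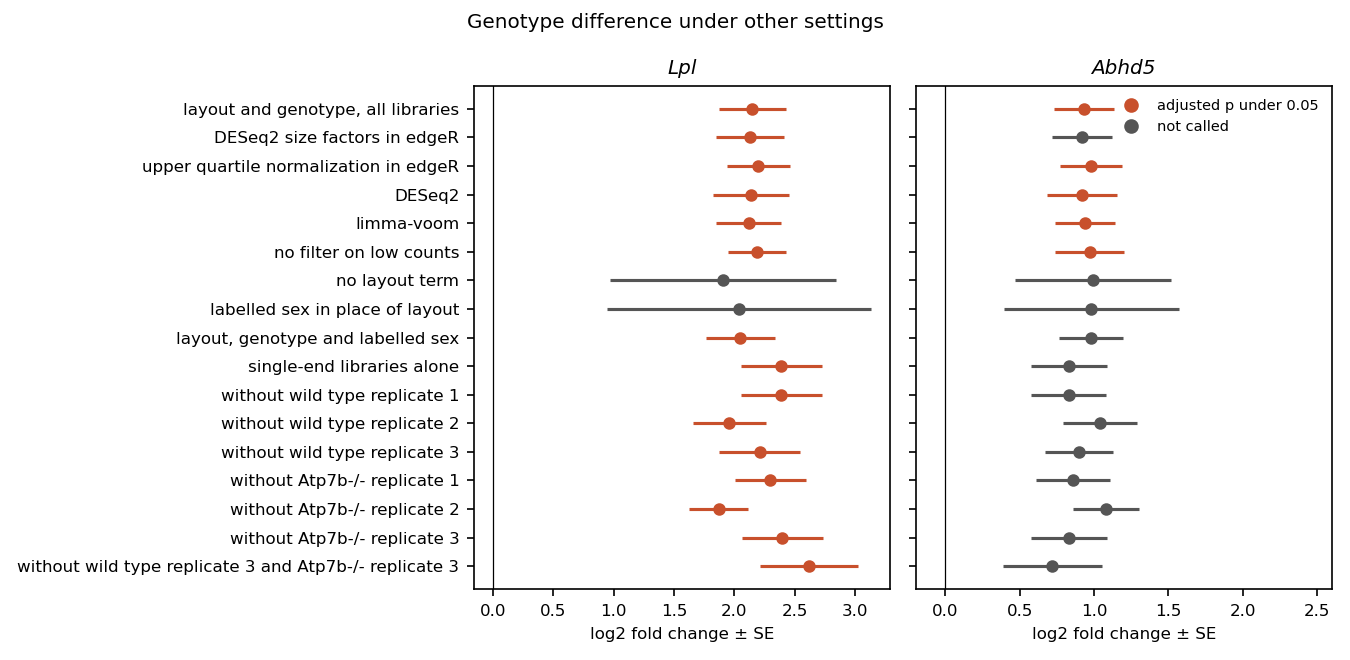
Genotype difference of Lpl (left) and Abhd5 (right) as log2 fold change with SE (x axis) under each setting (y axis); red points have an adjusted p under 0.05. Lpl lies between 1.87 and 2.62 and is called except where layout is left out over all libraries or replaced by labelled sex. Abhd5 lies between 0.72 and 1.08 and is called in 4 of 16 alternatives.

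Of the 16 tested genes among the other lipid droplet genes 0 were called by edgeR, DESeq2 or limma-voom, and their median was 0.08. In edgeR 3 of them had an unadjusted p under 0.05, beside 14.5% of all genes. Hilpda, another inhibitor of ATGL, was at 0.866, 0.764 and 0.741 CPM in wild type replicates 1 to 3, against 1.63, 1.82 and 3.02 CPM in the Atp7b-/- ones. Its groups did not overlap, as held for 8.5% of all genes tested. The Hilpda difference of 1.44 (SE 0.44, interval 0.45 to 2.42) did not pass after adjustment (adjusted p = 0.152). The droplet hydrolase Ldah had a difference of 0.72 (adjusted p = 0.172, and 0.0382 without the filter), the small GTPase gene Rab18 one of 0.41 (adjusted p = 0.365) and the retinol dehydrogenase gene Rdh10 one of -0.45 (adjusted p = 0.325). Plin1, the perilipin of fat cells, had 73 and 96 counts in the paired-end libraries and at most 1 count in any single-end library.

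Lpl acts together with extracellular factors, and edgeR called 0 of 13 tested genes of that list (median -0.32, 10 negative). At an unadjusted p under 0.05 were 5 of the 13, beside 14.5% of all genes. DESeq2, which called 5.93% of all genes, called 3 of the 13 lower, Pcsk6, Apoa5 and Vldlr (adjusted p = 0.00486, 0.0108 and 0.0465). So did edgeR without the filter (4.44% of all genes), and limma-voom (3.05%) called Pcsk6 (0.0477). Their adjusted p ran up to 1 over the alternatives. Apoc2, the cofactor that Lpl needs, was at 208 ± 8.66 CPM across wild type livers, against 333 ± 71.2 CPM across Atp7b-/- ones (log2 fold change 0.66, adjusted p = 0.173). Apoa5, an activator of plasma triglyceride breakdown, had a difference of -0.96 (adjusted p = 0.108), the lipoprotein receptor gene Vldlr one of -1.13 (adjusted p = 0.142) and the convertase gene Pcsk6, whose protein can cleave lipases, one of -0.93 (adjusted p = 0.07).

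Like Cd36, which was not called, 0 of the 14 other tested fatty acid uptake and binding genes were called by edgeR (median -0.47, 9 negative). At an unadjusted p under 0.05 were 5 of the 14, beside 14.5% of all genes. DESeq2, with 5.93% of all genes called, called 3 of the 14 lower, Slc27a2, Acsl1 and Fabp5 (adjusted p = 3.55e-05, 0.00528 and 0.00143). With limma-voom (3.05% of all genes) Slc27a2 was called (0.0373). EdgeR without the filter (4.44% of all genes) called Slc27a2 and Fabp1 (0.0277 and 0.00934). The transporter and acyl-CoA synthetase gene Slc27a2 was at 1148, 1017 and 981 CPM in wild type replicates 1 to 3, against 578, 616 and 566 CPM in the Atp7b-/- ones. These groups did not overlap across layouts, as held for 8.5% of all genes tested. The Slc27a2 difference of -0.83 (SE 0.20) had an adjusted p of 0.0672 in edgeR, with 3.55e-05 to 1 over the alternatives. The fatty acid binding protein genes Fabp1 and Fabp5 had differences of -0.96 and -2.54 (adjusted p = 0.22 and 0.203) and the long-chain synthetase gene Acsl1 one of -0.61 (adjusted p = 0.171). Fabp5 passed in 3 of 16 alternatives, among them the fit leaving out wild type replicate 3 (-2.97, adjusted p = 0.0165, range 0.00143 to 1).

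Of 15 tested transcription factor and coregulator genes known to act on droplet genes, 13 had negative differences and edgeR called 0 (median -0.40). At an unadjusted p under 0.05 were 6 of the 15, beside 14.5% of all genes. DESeq2 (5.93% of all genes) called Srebf1 and Ahr lower (adjusted p = 0.0109 and 0.0178), and limma-voom called 0. EdgeR without the filter (4.44% of all genes) called Srebf1 and Cebpa (0.00231 and 0.0111). The lipogenic factor gene Srebf1 had a difference of -1.0 (adjusted p = 0.0997), the xenobiotic receptor gene Ahr, which can raise Cd36, one of -0.73 (adjusted p = 0.104), Cebpa one of -0.93 (adjusted p = 0.166) and Epas1 one of -0.52 (adjusted p = 0.238). Srebf1 passed in 3 of 16 alternatives (adjusted p range 0.00231 to 1). Among them was the fit without both libraries that went against their sex labels (-1.38). That fit set wild type replicate 2 alone against Atp7b-/- replicates 1 and 2.

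**Figure D5:**
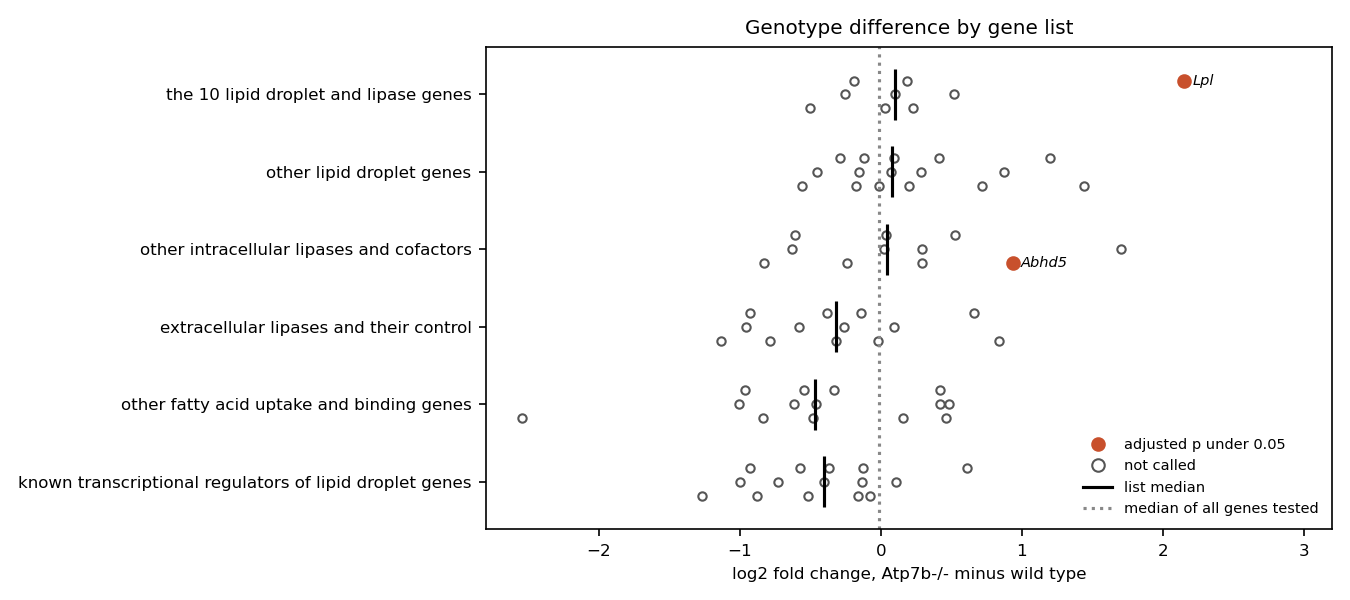
Log2 fold change, Atp7b-/- minus wild type (x axis), of every tested gene in the 10 lipid droplet and lipase genes and in 5 related lists (rows); filled red points have an adjusted p under 0.05, black bars are list medians and the dotted line is the median of all genes tested (-0.01). Lpl and Abhd5 are the genes called by edgeR, and the medians of the uptake and regulator lists are -0.47 and -0.40.

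The genes whose pattern over the 6 libraries was most like that of a member, after removal of the layout means, were named for the 3 members with the smallest genotype p. For Lpl these were Srxn1, Elof1 and Dxo, with Pearson r of 0.999, 0.998 and 0.997. Bcorl1, Rhoq and Gna12 were nearest to Pnpla2 (0.998, 0.997 and 0.997), and Pex3 and Zfp180 to Cd36 (0.998 and 0.997). Srxn1, the sulfiredoxin gene, was at 41.5, 44.2 and 54.4 CPM in wild type replicates 1 to 3, against 98.5, 125 and 79.4 CPM in the Atp7b-/- ones. Its log2 difference was 1.10 (edgeR, adjusted p = 0.0205). Elof1 and Dxo had smaller differences of 0.19 and 0.35 and were not called (adjusted p = 0.671 and 0.426). These coefficients are the highest among all tested genes over only 6 libraries and are given as a description.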

How the data were processed

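Raw counts per Ensembl gene were deposited by the authors, with 1 column per library and no normalization. STAR 2.4, featureCounts and edgeR 3.8 with build GRCm38 are named in the submitters' processing notes; annotation, strand setting and handling of read pairs: not given in the sources used here. Symbols, coordinates and exon lengths came from GENCODE M21 (GRCm38), which named 40340 of 41388 identifiers. Replicate numbers follow accession order. Libraries of a group differed beyond sampling noise (chi-square per gene 34.8 to 448).

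The test of genotype was the robust quasi-likelihood test of edgeR 4.0.16 (R 4.3.3), after TMM scaling and an expression filter with a minimum count of 10 (terms: layout, genotype; Benjamini-Hochberg adjustment over 12988 genes, calls under 0.05). SE is the absolute log2 fold change over the square root of F. The interaction used layout, genotype and labelled sex as terms, and the layout test the main terms; the latter was added after the data were seen. Scripts were tested on simulated data. DESeq2 1.42.0 and limma 3.58.1 (voom) were alternatives. The members, the related lists and the rule for named genes (all members, up to 4 members of smallest p per related list, other called ones, and the 3 genes most like each of 3 members by Pearson r, for mean log2 CPM of at least 0) were chosen with earlier results of these data known. Gpnmb, Trem2, Adipoq, Aqp7, Cfd, Lep, Plin1, Slc36a2, Xist and Ddx3y were picked from the lists after their values were seen. Likeness used log2 of CPM plus 0.5, and 1 gene it named is not reported here.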

Additional observations from a re-analysis of the deposited data

How the results depend on the processing

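No paired analysis was possible because the labels give the groups no shared replicate numbers. The number of genes called, 323, was 770 with DESeq2, 1116 without the filter, 126 in the single-end libraries alone, 119 to 323 when 1 library was left out (119 and 208 without replicates 3 and 1 of the Atp7b-/- group, 131 without the paired-end wild type library), and 0 in edgeR without the layout term or with labelled sex in its place, where 545 and 381 genes had an unadjusted p under 0.05. Of the 10 genes, 1 was called in each setting except the last 2, with 0 (Lpl, in every leave-out). The interaction called 2 genes, and 70 with DESeq2. Layout calls among the 10 genes fell from 5 to 2, and over all genes from 6864 to 3145, without wild type replicate 1. Signs of uncalled differences turned as follows. Plin2 reached -0.16 among the leave-outs (to 0.40). Plin4 was 0.31 in the single-end libraries, -0.91 to 0.32 in the leave-outs and 0.78 without wild type replicate 3 and Atp7b-/- replicate 3, a setting chosen after seeing the data, in which Cideb was 0.19 and G0s2 -0.72. Plin5 was -0.01 in the single-end libraries and -0.07 to 0.40 in the leave-outs. Cidec was -0.28 with limma-voom, -0.12 without layout, -0.20 with labelled sex, in place of layout or beside it, and -0.21 to 0.71 in the leave-outs. G0s2 was -0.16 without layout, -0.45 in the single-end libraries and -0.45 to 0.63 in the leave-outs. Of 498 gene values recomputed, 427 kept direction and side of the threshold, 19 lost the call, 28 gained it and 24 changed sign; the causes were not tested. Depth limits Cidea, with at most 1 count per single-end library.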
